A study of Mus musculus with 24 samples.

Results

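The genes described here encode mitochondrial ribosomal proteins, taken as every gene whose symbol is Mrpl or Mrps followed by a number and at most 1 letter, with no hyphen. The rule found 78 of the 55416 genes in the table, 49 named Mrpl for the large subunit and 29 named Mrps for the small subunit. RNA came from 24 mouse kidneys in 4 groups of 6, labelled as biological replicates, which crossed surgery with the genotype of Polg, the gene for the polymerase that copies mitochondrial DNA. The groups were sham Polg+/+, sham PolgD257A, B-IRI Polg+/+ and B-IRI PolgD257A, where B-IRI is the labels' name for ischemia reperfusion surgery and the genotypes were littermates. PolgD257A lacks the proofreading activity of the polymerase, so mitochondrial DNA gathers point mutations. As a point change it cannot be checked from counts per gene. The study asked how such mutations bear on injury after ischemia and reperfusion. The sources used here give no sex, age, interval between surgery and sampling, or number of copies of the allele.

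Mitochondria keep a ribosome of their own, which makes the 13 proteins encoded by mitochondrial DNA, all of them parts of the respiratory chain and ATP synthase. Its 2 ribosomal RNAs are transcribed in the mitochondrion, while every one of its proteins is encoded in the nucleus, made in the cytosol and imported. The kidney's proximal tubule is rich in mitochondria and relies on oxidative phosphorylation for transport. Of the 78 members 46 have a counterpart in bacterial ribosomes and 32 are specific to mitochondria. A few names mislead: the products of Mrps30 and Mrps18a sit in the large subunit, and the product of Mrps36 (Kgd4) belongs to the 2-oxoglutarate dehydrogenase complex rather than to the ribosome.

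Promoters are shown because members moved in opposite directions after injury. The 250 bases before the RefSeq start (GRCm38.p6) were at hand for 69 members and were searched on both strands for 4 strings: CGCATGCG, the core of the site bound by NRF1, CCGGAAG, a core bound by ETS factors such as GABP, AANATGGC for YY1 and the E-box CACGTG. ETS and YY1 strings can overlap, but no member window held the overlapping form. Below are 4 windows that contain no annotated exon, chosen with the values known: Mrpl52 and Mrps22 rose after B-IRI in both genotypes, and Mrpl34 and Mrpl42 fell in PolgD257A. Capitals mark the ETS core as it reads on the gene's strand, in either orientation.
Mrpl52, chr14:54426659-54426908, plus strand: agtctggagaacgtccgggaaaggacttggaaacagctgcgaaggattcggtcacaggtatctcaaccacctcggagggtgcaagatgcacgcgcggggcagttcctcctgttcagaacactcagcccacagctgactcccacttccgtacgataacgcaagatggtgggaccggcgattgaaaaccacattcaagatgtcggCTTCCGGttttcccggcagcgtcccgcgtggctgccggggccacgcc
Mrps22, chr9:98601680-98601929, minus strand: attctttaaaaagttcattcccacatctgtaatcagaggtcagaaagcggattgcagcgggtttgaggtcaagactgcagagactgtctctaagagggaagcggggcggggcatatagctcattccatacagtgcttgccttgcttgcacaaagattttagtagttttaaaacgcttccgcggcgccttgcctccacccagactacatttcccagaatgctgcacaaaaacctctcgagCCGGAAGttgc
Mrpl34, chr8:71464676-71464925, plus strand: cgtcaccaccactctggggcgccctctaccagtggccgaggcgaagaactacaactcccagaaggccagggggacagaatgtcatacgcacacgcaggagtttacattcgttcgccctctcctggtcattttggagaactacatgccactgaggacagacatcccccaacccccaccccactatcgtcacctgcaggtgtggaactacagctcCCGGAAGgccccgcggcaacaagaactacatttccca
Mrpl42, chr10:95501950-95502199, minus strand: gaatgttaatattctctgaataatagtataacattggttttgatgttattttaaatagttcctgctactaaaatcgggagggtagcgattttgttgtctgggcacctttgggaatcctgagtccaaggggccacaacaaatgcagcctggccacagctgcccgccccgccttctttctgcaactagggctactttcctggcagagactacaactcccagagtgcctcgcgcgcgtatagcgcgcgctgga

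The ETS core stood in 17 of 69 member windows (24.6%), against 7.05% of all 27025 promoters and 12.8% of the promoters of genes tested. The NRF1 core stood in 7 member windows (10.1%, against 1.58% and 2.88%) and the YY1 string in 7 (10.1%, against 3.93% and 4.31%). The E-box stood in 5 (7.25%, against 6.05% and 8.13%). Read against the response in PolgD257A kidneys, the ETS core was in 4 of the 12 windows of members that rose, 1 of the 21 of members that fell and 11 of the 35 of members that passed in neither direction. NRF1 cores were in 2 of 12, 4 of 21 and 1 of 35. A match describes letters only, and its absence from a window says nothing of a factor.

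Between 16689284 and 26341004 reads per library were assigned to genes, and 0.361 to 0.475% of a library's reads fell on the members. As a check of the tissue, 10 proximal tubule markers were read, and none was at 0 in any group. Their summed normalized count fell with injury, from 293800 to 383300 in sham Polg+/+ and 330500 to 396100 in sham PolgD257A, to 204900 to 269500 in B-IRI Polg+/+ and 132000 to 172600 in B-IRI PolgD257A libraries. The summed count of 4 fibroblast markers was 2291 to 3060, 1925 to 2780, 3789 to 8437 and 7467 to 13120 in the same order, with none at 0. Taken singly, 3 of these 4 markers (75%) were higher after B-IRI in each genotype, against 21.4% and 30.2% of all genes. The remaining 1 was lower, by a log2 change of -0.57 in Polg+/+ and -0.53 in PolgD257A. Lower sums were not particular to the proximal tubule. For 6 distal and collecting duct markers the sum was 48410 to 62050, 45070 to 55590, 39330 to 50260 and 25410 to 37210 in the same order of groups. For 4 thick ascending limb markers the ranges of all groups overlapped. In bulk kidney RNA, fewer cells of a type and less RNA per cell cannot be told apart, and the part of these shifts in the members' values was not tested.

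Among the members, 77 passed the filter on low values (10 or more normalized counts in 6 or more libraries). Mrpl53 was at 0 in all 24 libraries, and 88.0% of its exonic length in GENCODE M21 is shared on the same strand with Gm42688. Mean normalized counts of those tested ran from 413.6 for Mrps18c to 4682 for Mrpl12. Levels between genes were compared per kilobase of exon. Mrpl12, which forms the flexible stalk that recruits translation factors and which has also been reported to bind the mitochondrial RNA polymerase, stood at 3056 normalized counts per kilobase. Mrps21, a small subunit protein kept from bacteria, was level with it at 3036, and Mrpl34 followed at 2321. The lowest were Mrps30 at 66.3, Mrpl33 at 90.3 and Mrpl19 at 90.5 per kilobase. The annotated exons of these last 3 genes add up to several kilobases, so that long annotated forms lower their values.

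In sham kidneys no member passed the threshold for a difference between the genotypes. By limma-trend on log2(normalized count + 1), with Benjamini-Hochberg adjustment over all genes tested, 0 of 77 passed an adjusted p of 0.05 between PolgD257A and Polg+/+, against 0.0861% of all genes higher and 0.0402% lower. The unadjusted p was under 0.05 for 1 member, and edgeR and DESeq2 on the recovered reads also called 0. The median log2 difference was 0.04 for Mrpl and 0.06 for Mrps genes, against 0.01 for all genes, and single members lay between -0.06 and 0.15. Although 0 passed, 66 of 77 differences were above 0, a count for which no share over all genes was taken. The median over members stood 0.22 above the sham Polg+/+ mean on the log2 scale in sham PolgD257A replicate 6. It lay between -0.09 and 0.10 in the rest of that group, and between -0.11 and 0.14 in sham Polg+/+ libraries. The ranges of the 2 sham groups overlapped for every member tested, but the share of all genes whose ranges overlap was not taken. Mrpl46 and Mrps11 lie head to head on chromosome 7, 662.7 and 653.2 kb from Polg, the nearest members to the allele. Their log2 differences in sham were 0.02 ± 0.06 (SE) and 0.05 ± 0.07. Among 25 genes for assembly of this ribosome and modification of its RNA, only Ngrn passed in sham, with 554.4 to 678.6 normalized counts in Polg+/+ and 764.3 to 963.9 in PolgD257A libraries (log2 difference 0.51 ± 0.06, adjusted p = 9.9e-06). Ngrn, needed for the large ribosomal RNA, also lies near Polg, at a distance of 794.9 kb, and was singled out after its values were seen.

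After B-IRI in Polg+/+ kidneys members moved up more often than down, and by little. Of 77, 24 were higher and 2 lower, which is 14 higher and 1 lower of 48 Mrpl genes, and 10 higher and 1 lower of 29 Mrps genes. Over all 17430 genes tested 21.4% were higher and 19.8% lower, so the members' shares of 31.2% higher and 2.6% lower were above and below those of all genes. The median log2 change was 0.09 for Mrpl and 0.12 for Mrps genes, against -0.01 for all genes. In these animals 63 of 77 members had a change above 0, a count for which no share over all genes was taken.

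PolgD257A kidneys showed both directions after B-IRI. Here 15 members rose and 23 fell, against 30.2% of all genes higher and 30.3% lower. As shares of the members these are 19.5%, below the background, and 29.9%, close to it. Large subunit genes gave 10 higher and 15 lower of 48, and small subunit genes 5 higher and 8 lower of 29. Their medians were -0.07 and -0.02, against 0.00 for all genes. Without sham PolgD257A replicate 6, the sham library with the highest median over members, 15 fell. Calls over all genes were not counted for that fit.

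The 15 members that rose in PolgD257A were also among the 24 that rose in Polg+/+, and the 2 that fell in Polg+/+ fell in PolgD257A too. Another 9 passed as higher in Polg+/+ alone, 21 passed as lower in PolgD257A alone, and 30 passed in neither genotype. Passing in 1 genotype alone is not a difference between genotypes, which was tested as the interaction described further on. The scatter of the injury responses shows the largest rises above the line of equality and most other members below it.

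**Figure D1:**
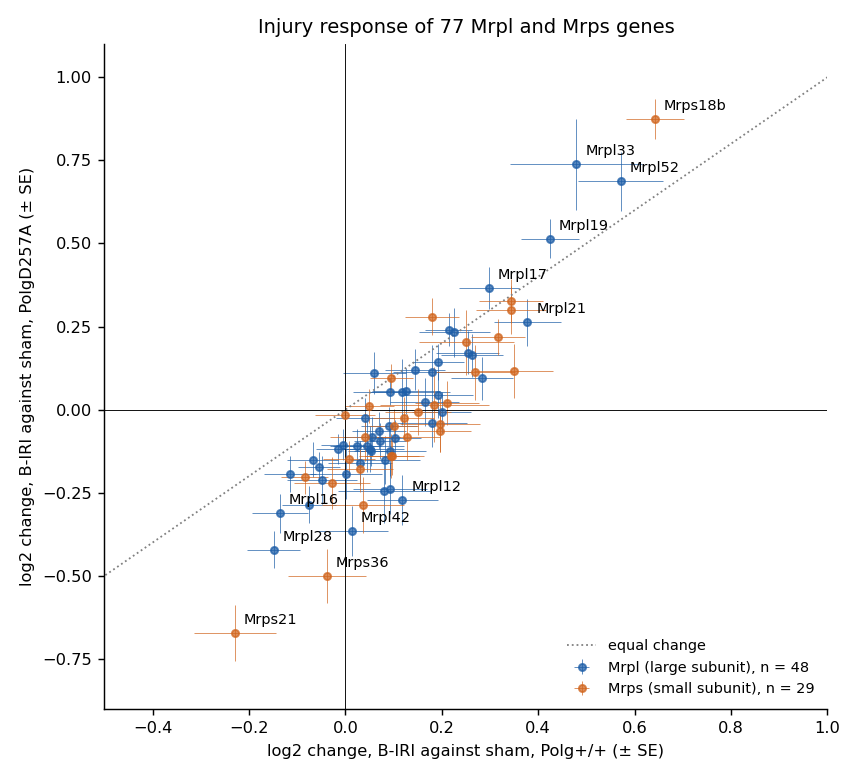
Log2 change from sham to B-IRI in Polg+/+ (x axis) and in PolgD257A kidneys (y axis) for 77 members, with standard errors, coloured by the name of the subunit; the dotted line marks equal change. Mrps18b, Mrpl33, Mrpl52 and Mrpl19 lie at the upper right, Mrps21 at the lower left, and both colours spread over the same range.

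Mrps18b had the largest rise in both genotypes. It is 1 of 3 mammalian copies of the bacterial S18 protein, and its product is a small subunit component specific to mitochondria. In Polg+/+ kidneys its normalized counts were 293.1, 301.6 and 336.9 (lowest, median and highest) in sham and 449.7, 467.8 and 542.0 after B-IRI. In PolgD257A kidneys they were 312.9, 325.4 and 341.6 in sham and 541.0, 600.6 and 682.8 after B-IRI. Sham and B-IRI libraries did not overlap in either genotype, while the B-IRI ranges of the genotypes met at their edges. The log2 change was 0.64 ± 0.06 (SE, adjusted p = 5.2e-09) in Polg+/+ and 0.88 ± 0.06 (adjusted p = 2.5e-12) in PolgD257A. Mrps18b lies on chromosome 17 (35910379 to 35916389, minus strand), and 30.5% of its exonic length overlaps Gm16279 on the opposite strand, whose reads cannot be told apart without strand.

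The other S18 copies moved less. Mrps18c, the copy closest to the bacterial protein, had medians of 384.2 in sham and 439.7 after B-IRI in Polg+/+, and 386.3 and 429.9 in PolgD257A. Its log2 changes were 0.25 ± 0.10 (adjusted p = 0.043) and 0.20 ± 0.10 (adjusted p = 0.078), with overlapping ranges. The first call was lost without any 1 of 7 libraries of the Polg+/+ groups, with no filter, with quantile normalization and with the replicate number as a block. Mrps18a changed by 0.15 ± 0.07 (adjusted p = 0.083) and -0.01 ± 0.07 (adjusted p = 0.93). Whether the 3 copies differ from each other was not tested.

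Mrpl52, a large subunit protein specific to mitochondria, ranked next in Polg+/+. Its counts were 636.6, 799.7 and 868.0 in sham and 1006, 1167 and 1324 after B-IRI in Polg+/+. In PolgD257A they were 724.6, 829.2 and 993.5 in sham and 1139, 1303 and 1621 after B-IRI. Every B-IRI library lay above every sham library of its genotype. The log2 changes were 0.57 ± 0.09 (adjusted p = 1.1e-05) and 0.69 ± 0.09 (adjusted p = 2.0e-07), and no other gene overlaps its exons on chromosome 14 (54426909 to 54429756, plus strand). Its promoter is the first of those printed above.

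Mrpl33, a small protein kept from bacteria, varied more between animals than most members. Polg+/+ libraries held 424.8, 497.8 and 601.7 counts in sham and 565.8, 740.1 and 846.2 after B-IRI. PolgD257A libraries held 397.9, 526.9 and 701.2 in sham and 679.8, 902.9 and 1211 after B-IRI. The ranges overlapped in both genotypes, and the log2 changes were 0.48 ± 0.14 (adjusted p = 0.0064) and 0.74 ± 0.14 (adjusted p = 4.3e-05). Mrpl19, a bacterial-type protein at the interface between the subunits, was tighter. It went from 381.3, 405.1 and 455.9 to 527.1, 557.1 and 570.3 in Polg+/+, and from 373.6, 410.5 and 469.4 to 533.4, 600.3 and 660.0 in PolgD257A, with no overlap in either. Its log2 changes were 0.42 ± 0.06 (adjusted p = 2.8e-06) and 0.51 ± 0.06 (adjusted p = 3.4e-08), although 36.0% of its exonic length overlaps Gcfc2 on the opposite strand.

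Further members that rose in both genotypes came from both subunits. Mrpl17, a bacterial-type protein of the large subunit, gained 0.30 ± 0.06 in Polg+/+ and 0.37 ± 0.06 in PolgD257A, and Mrpl21 gained 0.38 ± 0.07 and 0.26 ± 0.07. For Mrps10, Mrps22 and Mrps27 of the small subunit, the log2 changes were 0.34, 0.34 and 0.32 in Polg+/+ and 0.33, 0.30 and 0.22 in PolgD257A. Mrps22 is mutated in a human mitochondrial translation disorder, and Mrps27 is an RNA-binding protein of the pentatricopeptide repeat family. Mrps10 rose from a median of 762.8 to 948.7 in Polg+/+ without overlap, and from 811.9 to 1019 in PolgD257A with overlap. Mrpl38 and Mrpl40, which help to form the central protuberance of the large subunit, rose by 0.21 and 0.23 in Polg+/+ and by 0.24 and 0.23 in PolgD257A. Mrpl45, the protein that tethers the ribosome to the inner membrane, rose by 0.19 and 0.14, and Mrps30 by 0.18 and 0.28. Mrpl15 and Mrpl47 completed the 15, with 0.26 and 0.25 in Polg+/+ and 0.16 and 0.17 in PolgD257A. In PolgD257A the calls of Mrpl15, Mrpl45 and Mrpl47 were each lost without B-IRI PolgD257A replicate 3, at 0.12, 0.11 and 0.12, and without some other single libraries. With only the 12 libraries compared Mrpl15 and Mrpl47 did not pass either, nor did Mrpl15 with no filter or Mrpl47 under quantile normalization (0.10).

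Mrps21 fell most. Its counts were 2311, 2537 and 2701 in sham and 2031, 2110 and 2284 after B-IRI in Polg+/+. In PolgD257A they were 2237, 2661 and 3308 in sham and 1464, 1551 and 2182 after B-IRI. Sham and B-IRI libraries did not overlap in either genotype, and 1 B-IRI PolgD257A library at 2182 stood well above that group's median. The log2 change was -0.23 ± 0.08 (adjusted p = 0.032) in Polg+/+ and -0.67 ± 0.08 (adjusted p = 1.5e-07) in PolgD257A. The fall in Polg+/+ did not pass without any 1 of 6 libraries of the Polg+/+ groups, nor with no filter. Mrps21 lies on chromosome 3 (95862634 to 95871519, minus strand) and overlaps no other gene's exons.

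Mrpl28, a bacterial-type large subunit protein, was the other member lower in both genotypes. It went from 1439, 1452 and 1567 counts to 1234, 1315 and 1494 in Polg+/+, with overlap, and from 1363, 1512 and 1648 to 1012, 1124 and 1274 in PolgD257A, without. The log2 changes were -0.15 ± 0.06 (adjusted p = 0.033) and -0.42 ± 0.06 (adjusted p = 2.8e-07). The first of these was lost without any 1 of 7 Polg+/+ libraries, with no filter and with the replicate block. Both falls in Polg+/+ were lost, leaving 0 of 77 lower, without sham Polg+/+ replicate 4 or B-IRI Polg+/+ replicate 2, 3 or 4.

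Mrps36 fell in PolgD257A kidneys. In Polg+/+ its counts were 940.9, 1127 and 1216 in sham and 974.2, 1077 and 1147 after B-IRI, 2 ranges that lay over each other. In PolgD257A they were 1031, 1150 and 1375 in sham and 714.7, 773.5 and 995.8 after B-IRI, with no overlap. The log2 changes were -0.04 ± 0.08 (adjusted p = 0.74) and -0.50 ± 0.08 (adjusted p = 7.3e-06). Its product is known as a subunit of a citric acid cycle enzyme, as said at the start.

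Mrpl12 and Mrpl42 of the large subunit also fell in PolgD257A. Mrpl12 stood at 4203, 4591 and 5322 in sham and 4791, 4935 and 5469 after B-IRI in Polg+/+, and at 4472, 4780 and 5779 in sham and 3397, 4041 and 4767 after B-IRI in PolgD257A. All B-IRI PolgD257A libraries lay below all B-IRI Polg+/+ libraries, though they overlapped sham. Its log2 changes were 0.12 ± 0.07 (adjusted p = 0.21) and -0.27 ± 0.07 (adjusted p = 0.0025), and under quantile normalization the first was 0.17 and passed while the second was -0.13 and did not. Mrpl42, specific to mitochondria, had 2205, 2617 and 2858 in sham and 2437, 2585 and 2925 after B-IRI in Polg+/+. In PolgD257A it had 2314, 2710 and 3171 in sham and 1895, 1999 and 2412 after B-IRI, again below every B-IRI Polg+/+ library. Its log2 changes were 0.01 ± 0.07 (adjusted p = 0.90) and -0.36 ± 0.07 (adjusted p = 1.5e-04).

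**Figure D2:**
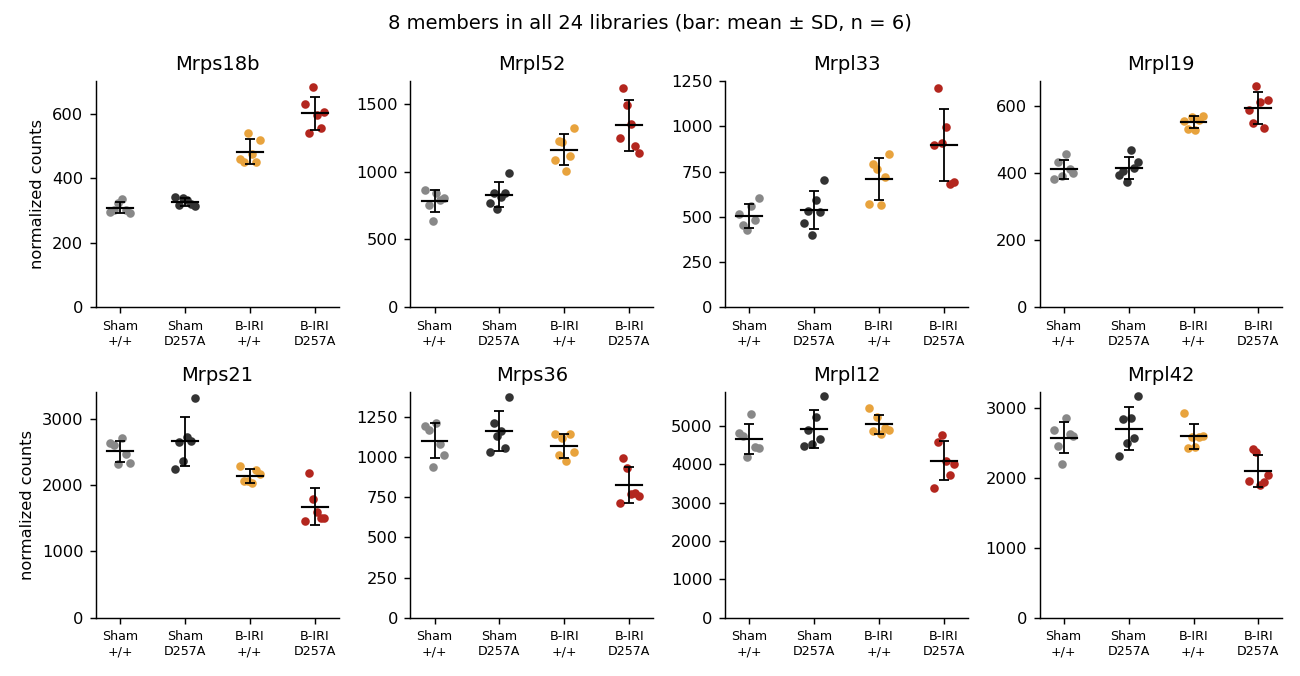
Normalized counts of 8 members in every library (y axes start at 0), by group on the x axis, where +/+ is Polg+/+ and D257A is PolgD257A; bars give mean ± SD with 6 libraries each. The top row holds members that rose after B-IRI in both genotypes, and in the bottom row the B-IRI PolgD257A group has the lowest mean, though for Mrps21 (1464 to 2182) and Mrps36 its range overlaps that of B-IRI Polg+/+.

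Other falls in PolgD257A were smaller. Mrpl16, near the peptidyl transferase centre, went from a median of 1299 to 1044 (log2 change -0.31 ± 0.06, adjusted p = 5.0e-05), with overlap. Mrps24 and Mrpl4 fell by 0.29 each on the log2 scale, and Mrpl20 and Mrpl34 by 0.24 each. The remaining falls were between -0.22 for Mrps33 and -0.12 for Mrpl10, the base of the stalk on which Mrpl12 sits. Mrpl58, a peptidyl-tRNA hydrolase that frees stalled ribosomes, changed by 0.09 ± 0.06 (adjusted p = 0.23) in Polg+/+ and -0.05 ± 0.06 (adjusted p = 0.48) in PolgD257A. For Mrpl18 the log2 changes were 0.08 ± 0.07 (adjusted p = 0.38) and -0.15 ± 0.07 (adjusted p = 0.074).

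After B-IRI the members that differed between genotypes were lower in PolgD257A, with Mrps18b as the exception. Of 77, 15 were lower and 1, Mrps18b, was higher, against 15.2% and 14.3% of all genes. The share of members called lower was near to the background and the share called higher below it. By name, 11 of 48 Mrpl genes and 4 of 29 Mrps genes were lower. The medians were -0.09 and -0.12 against 0.01 for all genes. Differences below 0 were found for 65 of 77 members, a count for which no share over all genes was taken. The count of 15 lower members moved on leaving out single libraries, fits for which calls over all genes were not counted. That count was 7 without B-IRI Polg+/+ replicate 1, and 8 and 9 without B-IRI PolgD257A replicates 1 and 6. It was 23 without B-IRI PolgD257A replicate 2 or 3. Those last 2 libraries had the highest medians over members in their group, at 0.10 and 0.14 on the log2 scale above the sham Polg+/+ mean, where the other 4 lay between -0.09 and -0.05. Their nuclear respiratory chain genes were also the least reduced of that group, at -0.16 and -0.27 against -0.64 to -0.55, and their cytosolic ribosomal protein genes the highest.

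The 2 largest differences after B-IRI were on the lower side. Mrps36 differed by -0.39 ± 0.08 (adjusted p = 7.3e-04), Mrps21 by -0.37 ± 0.08 (adjusted p = 0.0017) and Mrpl12 and Mrpl42 by -0.31 ± 0.07 each (adjusted p = 0.0024 and 0.0026). Mrpl34, a bacterial-type protein whose promoter is printed above, held 1408, 1505 and 1723 counts in B-IRI Polg+/+ and 1050, 1179 and 1501 in B-IRI PolgD257A libraries. The ranges overlapped, and the log2 difference was -0.31 ± 0.08 (adjusted p = 0.0031). Mrpl20 differed by -0.27 ± 0.10 (adjusted p = 0.036) and Mrpl28 by -0.23 ± 0.06 (adjusted p = 0.0020). On the other side Mrps18b was higher by 0.32 ± 0.06 (adjusted p = 2.6e-04). For Mrpl33 the difference was 0.33 ± 0.14 (adjusted p = 0.074) and for Mrpl52 0.20 ± 0.09 (adjusted p = 0.088), which did not pass. Mrpl18, with -0.20 ± 0.07 (adjusted p = 0.034), and Mrpl16, with -0.18 ± 0.06 (adjusted p = 0.023), were lost without several single libraries, B-IRI Polg+/+ replicate 1 among them. Mrpl18 was also lost with no filter and with the replicate block, and Mrpl16 with only the 12 libraries compared. Of the pair near Polg, Mrpl46 differed by -0.19 ± 0.06 (adjusted p = 0.020) and Mrps11 by -0.16 ± 0.07 (adjusted p = 0.074).

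**Figure D3:**
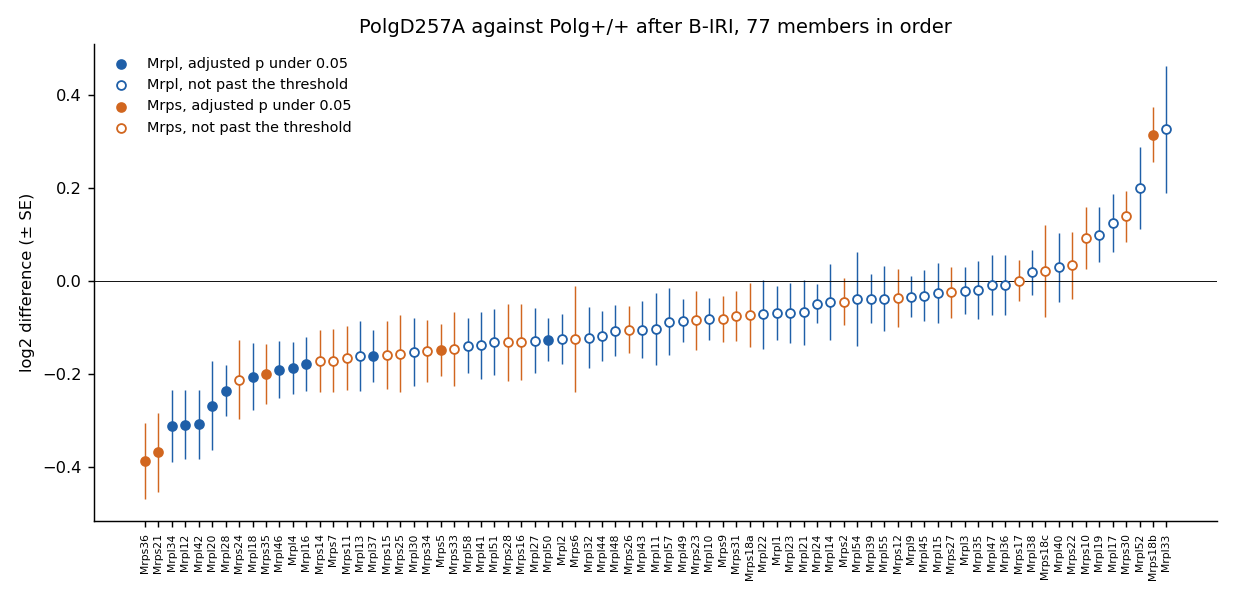
Log2 difference between PolgD257A and Polg+/+ kidneys after B-IRI (y axis, ± SE) for each of 77 members on the x axis, in order of size; filled points passed an adjusted p of 0.05. Most points lie below 0, from Mrps36 at -0.39, and Mrps18b is the only filled point above it.

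The interaction asks whether the injury response itself differed between genotypes. Of 77 members, 7 had a lower response in PolgD257A and 0 a higher one, against 9.08% and 6.87% of all genes. They were Mrps36 (-0.46 ± 0.12, adjusted p = 0.0075), Mrps21 (-0.44 ± 0.12, adjusted p = 0.013), Mrpl12 (-0.39 ± 0.10, adjusted p = 0.012), Mrpl42 (-0.38 ± 0.11, adjusted p = 0.016), Mrpl34 (-0.33 ± 0.11, adjusted p = 0.039), Mrpl28 (-0.27 ± 0.08, adjusted p = 0.018) and Mrps5 (-0.24 ± 0.08, adjusted p = 0.042). Mrps5, a bacterial-type protein known for its part in decoding accuracy, went from a median of 1449 to 1525 in Polg+/+ and from 1528 to 1344 in PolgD257A. The call of Mrpl34 was lost with no filter, with quantile normalization, with the replicate block and without any 1 of 14 libraries. Without B-IRI PolgD257A replicates 2 and 3, each left out by itself, 11 and 13 members passed. Calls over all genes were not counted for these fits. In all 26 members had an unadjusted p under 0.05, a count for which no share over all genes was taken. On recovered reads edgeR and DESeq2 called 8 members lower and 0 higher each. Over all 17430 genes edgeR called 1609 lower and 1135 higher, and DESeq2 1761 lower and 1310 higher. The larger rise of Mrps18b in PolgD257A, 0.23 ± 0.08, did not pass (adjusted p = 0.061).

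By name, the balance between Mrpl and Mrps genes lay in the same range in all groups. The summed normalized counts of Mrpl genes over those of Mrps genes gave a ratio of 1.95 to 2.02 in sham Polg+/+, 1.95 to 1.97 in sham PolgD257A, 1.95 to 2.01 in B-IRI Polg+/+ and 1.94 to 2.03 in B-IRI PolgD257A libraries, so the ranges of the 4 groups lay over each other. These sums weight abundant members most, and the ratio was not taken again with members placed by structure. With Mrps30, Mrps18a and Mrps36 placed by structure, 11 of 50 large subunit genes rose and 15 fell in PolgD257A after B-IRI, and 4 of 26 small subunit genes rose and 7 fell. Proteins kept from bacteria gave 7 higher and 15 lower of 46 in that comparison, and proteins specific to mitochondria 8 and 8 of 31. The shares that fell, 32.6% and 25.8%, were near the 30.3% of all genes, and the shares that rose, 15.2% and 25.8%, were below 30.2%. Among the 45 members with no exon shared with another gene, 8 rose (17.8%) and 15 fell (33.3%).

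The medians of 2 related gene groups lay further from 0 than those of the members. Of 74 nuclear genes for respiratory chain subunits, 28 fell in Polg+/+ (median log2 change -0.18) and 74 in PolgD257A (median -0.54) after B-IRI. Those shares are 37.8% and 100%, against 19.8% and 30.3% of all genes. After B-IRI 65 of the 74 (87.8%) were lower in PolgD257A than in Polg+/+ (median -0.31). There 15 of 77 members and 15.2% of all genes were lower. Cytosolic ribosomal protein genes went the other way, 68 of 81 rising in Polg+/+ (median 0.35) and 69 in PolgD257A (median 0.40). These are 84% and 85.2%, against 21.4% and 30.2% of all genes. The ratio of summed cytosolic to mitochondrial ribosomal protein counts was 4.99 to 6.05 in sham Polg+/+, 4.88 to 5.58 in sham PolgD257A, 5.77 to 6.64 in B-IRI Polg+/+ and 6.78 to 7.97 in B-IRI PolgD257A libraries. The last range lay above the other 3. Of the 10 proximal tubule markers 6 fell in Polg+/+ and 10 in PolgD257A, and 8 were lower in PolgD257A than in Polg+/+ after B-IRI. Of all genes 19.8%, 30.3% and 15.2% were lower in the same comparisons. The part of the markers in the members' changes was not tested.

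**Figure D4:**
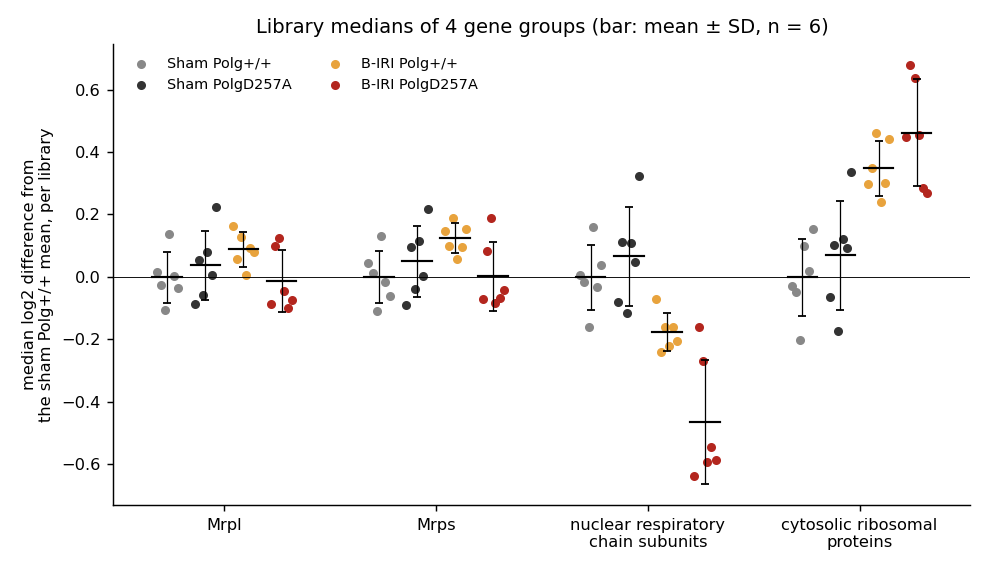
Median log2 difference from the sham Polg+/+ mean (y axis) over Mrpl genes, Mrps genes, nuclear respiratory chain genes and cytosolic ribosomal protein genes, 1 point per library, with mean ± SD of the 6 libraries of each group. The medians of Mrpl and Mrps genes stay between -0.11 and 0.22, while respiratory chain genes reach -0.64 in B-IRI PolgD257A.

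Counts of the RNAs that the mitochondrial ribosome is built from and of those it reads moved in opposite directions. Its ribosomal RNAs mt-Rnr1 and mt-Rnr2 rose in both genotypes after B-IRI, by 0.38 and 0.48 on the log2 scale in Polg+/+ (adjusted p = 0.015 and 0.0060) and by 0.48 and 0.52 in PolgD257A (adjusted p = 0.0014 and 0.0018). The messages read by this ribosome went the other way, with 11 of 13 lower in Polg+/+ (median -0.28) and 13 of 13 in PolgD257A (median -0.56). Of all genes 19.8% and 30.3% were lower. Between PolgD257A and Polg+/+ the median log2 difference of these messages was 0.20 in sham, with 12 of 13 above 0. By limma-trend 7 had an unadjusted p under 0.05 and 0 passed the threshold, against 0.0861% of all genes higher and 0.0402% lower. After B-IRI that median was -0.05, with 1 of 13 lower in PolgD257A (7.69%, against 15.2% of all genes). The labels give total RNA as the material and name no step that selects messages or removes ribosomal RNA. Whether the counts of mt-Rnr1 and mt-Rnr2 follow their abundance in the kidney was not tested.

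Genes that act with the ribosome were read from lists of their own. Among 15 mitochondrial translation factors, 7 fell in PolgD257A after B-IRI (46.7%, against 30.3% of all genes). By the interaction 5 of the 15 had a lower response in PolgD257A (33.3%, against 9.08% of all genes). The elongation factor Gfm1 fell by 0.42 in PolgD257A, the recycling factor Gfm2 by 0.49, the translational GTPase Guf1 by 0.48 and the initiation factor Mtif3 by 0.44. In Polg+/+ 2 factors fell (13.3%, against 19.8% of all genes), Gfm2 and the release factor family member Mtrf1. Lrpprc, which stabilizes mitochondrial mRNAs, rose there by 0.19. Of the 25 assembly and modification genes 5 rose and 3 fell in Polg+/+, and 5 rose and 9 fell in PolgD257A. Those shares are 20% and 12%, against 21.4% and 19.8% of all genes, and 20% and 36%, against 30.2% and 30.3%. There the GTPase Noa1 rose by 0.32, the RNA methyltransferase Trmt2b changed by -0.40, and Ybey, an endonuclease of ribosomal RNA, changed by -0.56. Ribosomal proteins under other symbols gave 1 higher of 5 in Polg+/+ (Chchd1, 0.40) and 1 lower of 5 in PolgD257A (Dap3, -0.26). Each of these is 20%, against 21.4% of all genes higher and 30.3% lower.

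Among 11 genes for mitochondrial transcription and RNA processing, Tfam, which packages mitochondrial DNA and starts its transcription, changed by -0.17 in Polg+/+ and -0.41 in PolgD257A, both past the threshold (adjusted p = 0.013 and 2.1e-07). The 8 regulators of mitochondrial gene promoters split. Ppargc1a and Esrra, a coactivator and a nuclear receptor of oxidative metabolism, fell by 0.54 and 0.60 in PolgD257A. Myc, which drives ribosome production and growth, rose by 2.27 in Polg+/+ and 2.97 in PolgD257A. Nrf1 changed by 0.07 and 0.09 and did not pass (adjusted p = 0.36 and 0.17). Gabpa, the DNA-binding subunit of the ETS factor GABP, fell by 0.16 and 0.20, and its partner Gabpb1 rose by 0.15 and 0.34.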

How the data were processed

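RNA was extracted from kidney with RNeasy kits and made into NEBNext Ultra II libraries, per the labels' protocols. FastQC, STAR, SAMtools, featureCounts, DESeq2 and GRCm38.p6 are named in the submitters' processing notes; the sources used here do not state strandedness. The deposited signal values are normalized counts, each gene count divided by its library's size factor (0.740 to 1.31); undoing this gave whole reads for 100% of values within 0.001. Columns naming Ctrl, Mut and SurgBIR were read as Polg+/+, PolgD257A and B-IRI, an inference from the names. A deposited table of log2 fold changes by the authors lists 1401 genes and 0 members. GENCODE M21, used for positions, shares the ID version of 35 genes only, so the annotation behind the counts differs.

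limma-trend (limma 3.58.1, R 4.3.3) was fitted to log2(normalized count + 1), which understates changes of low genes, with 1 coefficient for each group, 24 libraries and 17430 genes, and Benjamini-Hochberg adjustment per contrast. It was tested on simulated data. The alternatives changed the pseudocount (0.5, 5), the filter (none, 50), the scaling (TMM, quantile), the samples fitted (12 libraries), the replicate block, the tool on recovered reads (edgeR 4.0.16, DESeq2 1.42.0) and the libraries, each left out in turn.

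Members and lists were chosen with earlier results of these data known. Named were up to 5 of the largest called rises and falls per contrast (mean count 100 or more), members with a particular role, the 3 highest and 3 lowest per length, members called against most of their subunit, and up to 4 genes per companion list with the smallest adjusted p. Mrps11, Mrpl46, Mrpl4, Mrps24, Mrps33, Mrpl10, Mrpl20, Mrps5, Nrf1 and Gabpa, where outside that rule, were added after their values were seen.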

Additional observations from a re-analysis of the deposited data

Results flagged for a closer look

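The range of each group of 6 libraries was checked for a library set apart by a wide gap (Dixon's test), which chance alone gives in about 1 in 20 groups. It was met in 6 of 116 groups of values. These covered the named members tested, the library medians of Mrpl and Mrps genes and the ratio of Mrpl to Mrps sums. Sham Polg+/+ replicate 4 held 1567 normalized counts of Mrpl28 (others 1439 to 1485), 1655 of Mrpl34 (1340 to 1448) and 1751 of Mrps18a (1345 to 1479). B-IRI Polg+/+ replicate 1 held 1494 of Mrpl28 (1234 to 1319) and 2925 of Mrpl42 (2437 to 2601). B-IRI PolgD257A replicate 3 held 596.9 of Mrpl47 (473.1 to 507.4).

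The response to B-IRI differed between genotypes by the interaction test for 7 of 77 members, with a lower response in PolgD257A, a share near the 9.08% of all genes called lower. The log2 interaction was -0.46 for Mrps36, -0.44 for Mrps21, -0.39 for Mrpl12, -0.38 for Mrpl42, -0.33 for Mrpl34, -0.27 for Mrpl28 and -0.24 for Mrps5.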

How the results depend on the processing

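Median changes of Mrpl and Mrps genes moved by less than the spread between libraries (0.09 on the log2 scale for each) under every alternative run. Several of these medians were themselves smaller than that spread, so this rule cannot show that their direction held. From sham to B-IRI in PolgD257A, the median of Mrps genes went from -0.02 to between -0.08 and 0.01 on leaving out single libraries. Lower members after B-IRI in Polg+/+ (2) were 0 with no filter, 1 with the replicate block, and 0 to 3 over libraries left out. Members higher in PolgD257A than in Polg+/+ after B-IRI (1) were 2 with a filter of 50 and 1 to 4 over libraries left out. Interaction calls higher (0) were 1 with a filter of 50, 1 with the replicate block (Mrps18b in each) and 0 to 1 over libraries left out, and those lower (7) were 5 to 13. Members lower in PolgD257A than in Polg+/+ after B-IRI (15) were 7 to 23 over libraries left out. Within PolgD257A, members lower in B-IRI than in sham (23) were 15 to 27. Calls over all genes were not counted for fits that left out a library, so these member counts have no background beside them.

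For 26 named members, 4290 of 4394 alternatives kept the side of the threshold, 72 lost a call and 32 gained one. Where either fit passed, 0 reversed direction. Direction was not compared where neither fit passed. The interaction was not fitted on 12 libraries, since it needs all 24. Replicate numbers did not pair the libraries: over 36 pairs with the same number the correlation of deviations was -0.33 to 0.17, 2 exceeded 0.1, and 4 correlated best with their own number. The lowest mean among members tested was 413.6 normalized counts.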
